A study of Homo sapiens with 9 samples.

Results

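The PAX, SOX, LHX, DLX, IRX, NKX and TBX genes and those of the sine oculis type (SIX2 and its relatives) encode transcription factors that set up body axes and organ fields in the embryo. The 55 members of these 8 families described here, none of them a HOX gene, were chosen by name as typical targets of the polycomb repressive complex 2 (PRC2), out of 20033 protein-coding genes with a canonical transcription start site (TSS). They comprise 9 PAX, 9 SOX and 8 LHX genes, SIX2, SIX3 and SIX6, and 6 DLX, 6 IRX, 6 NKX and 8 TBX genes. The rule goes by gene name and uses no measured value, although results of these data were known when it was set. Accessibility was measured by ATAC-seq, in which the Tn5 transposase cuts open chromatin, in MDA-MB-231 cells, an established human triple-negative breast cancer (TNBC) line. The study asked how accessibility depends on EZH2 and E2F1. It deposited 9 peak lists: 2 from cells transduced with a control shRNA (shCtrl), 2 with shEZH2, 2 with shE2F1, and 1 each from shSUZ12, DMSO and GSK126 cells. All shRNA cells, shCtrl included, received lentivirus for 24 h and puromycin at 2 μg/ml for 72 h, whereas GSK126, which blocks the methyltransferase activity of EZH2, was applied for 72 h, at a dose the labels do not give. Peak lists cannot show whether a knockdown worked, so the knockdowns were not checked here.

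EZH2 is the catalytic subunit and SUZ12 a core subunit of PRC2, which trimethylates histone H3 at lysine 27 (H3K27me3). In differentiated cells PRC2 typically holds the CpG-rich promoters of developmental regulators in a silent state, and a given lineage releases only the few factors it needs. E2F1 is a cell cycle transcription factor that binds promoters of replication and division genes.

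The shortest list, with 58626 peaks, came from shEZH2 replicate 2 and the longest, with 85812, from shE2F1 replicate 2. Depth, read from the most frequent background at peaks, ranged over 1.41 to 2.18 tags, with the same libraries at the ends. The promoters of all 5 mesenchymal or basal markers (VIM, CD44, EGFR, AXL and CAV1) had a peak in all 9 libraries. Their percentiles were 0.81 to 63.6, lowest for AXL in shEZH2 (0.81 and 2.56), a range that overlaps that of the luminal markers. Of 5 luminal markers, ESR1, PGR, FOXA1 and CDH1 had a peak in 7 or 8 libraries, at percentiles of 3.66 to 35.6, and GATA3 had none. Of 5 blood or endothelial markers, only CDH5 had a peak, in 1 library.

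Sequences upstream of the TSS show what most of these promoters have in common. Of the 55 genes, 34 had an entry in the RefSeq promoter table (GRCh38.p14), and their 250 bases before the TSS held a median of 21 CG dinucleotides against 11 over 35116 RefSeq promoters. SIX2 and NKX6-1 had a promoter peak in all 9 libraries, whereas SOX1 and PAX5 had none in any library, and IRX1 lost its peak with shEZH2 and with shE2F1. Among genes matched at the same TSS, SIX2 and NKX6-1 were picked as the open ones with the highest mean shCtrl percentile. SOX1 and PAX5 were picked as the closed ones with the highest observed/expected CpG ratio, so their CG counts are not typical of closed promoters. Over all matched genes, open and closed promoters looked alike in CG content. The 8 with a peak in all 9 libraries had a median of 21.5 CG and the 20 with no peak a median of 21. Capitals mark CG, and each run reads 5′ to 3′ towards the TSS.
SIX2 (chr2:45009453-45009702, minus strand, 26 CG): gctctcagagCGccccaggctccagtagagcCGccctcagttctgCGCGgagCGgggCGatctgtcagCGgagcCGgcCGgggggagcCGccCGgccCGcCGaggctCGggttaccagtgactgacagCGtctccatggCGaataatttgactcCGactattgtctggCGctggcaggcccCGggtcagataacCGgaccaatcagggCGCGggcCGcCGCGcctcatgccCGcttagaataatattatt
NKX6-1 (chr4:84499293-84499542, minus strand, 23 CG): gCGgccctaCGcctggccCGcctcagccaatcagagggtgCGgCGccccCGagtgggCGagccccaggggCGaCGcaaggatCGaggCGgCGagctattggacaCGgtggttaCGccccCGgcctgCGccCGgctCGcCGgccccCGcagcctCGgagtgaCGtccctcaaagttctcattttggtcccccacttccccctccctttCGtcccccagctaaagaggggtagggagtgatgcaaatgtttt
SOX1 (chr13:112066899-112067148, plus strand, 31 CG): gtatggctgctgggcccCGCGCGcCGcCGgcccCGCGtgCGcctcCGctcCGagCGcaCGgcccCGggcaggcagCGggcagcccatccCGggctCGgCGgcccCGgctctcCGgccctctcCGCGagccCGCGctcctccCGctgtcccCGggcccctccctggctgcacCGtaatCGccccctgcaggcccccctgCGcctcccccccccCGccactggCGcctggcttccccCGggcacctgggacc
PAX5 (chr9:37034269-37034518, minus strand, 27 CG): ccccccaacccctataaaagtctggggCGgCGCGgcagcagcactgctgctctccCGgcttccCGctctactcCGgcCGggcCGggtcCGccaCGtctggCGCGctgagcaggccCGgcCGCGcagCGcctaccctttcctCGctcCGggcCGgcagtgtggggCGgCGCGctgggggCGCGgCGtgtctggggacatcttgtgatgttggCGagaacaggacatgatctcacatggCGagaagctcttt
IRX1 (chr5:3595582-3595831, plus strand, 29 CG): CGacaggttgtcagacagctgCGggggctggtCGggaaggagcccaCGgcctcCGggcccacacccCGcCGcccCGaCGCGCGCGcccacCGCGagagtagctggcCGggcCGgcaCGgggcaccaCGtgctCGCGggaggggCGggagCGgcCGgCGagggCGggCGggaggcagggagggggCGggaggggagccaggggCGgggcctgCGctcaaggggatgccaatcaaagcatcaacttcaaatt

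Most of the 55 promoters had no peak. A promoter was the 1 kb on either side of the canonical TSS, and a peak overlapping it by at least 1 bp counted. In all 9 libraries 12 of 55 genes (21.8%, 95% Wilson interval 12.9 to 34.4) had a promoter peak, 11 genes had one in 1 to 8 libraries, and 32 (58.2%, 45.0 to 70.3) had none in any. Over all protein-coding genes the shares were 60.0% in all 9 libraries and 29.1% in none. The 34 other genes of the same families, from a list of relatives outside the 55, stood between, with 12 (35.3%, 21.5 to 52.1) in all 9 libraries and 17 in none. Intervals cover counting error only, and a peak list cannot tell a site open in few cells from a weak site in all cells.

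By library, the number of the 55 genes with a promoter peak was 17 and 15 in shCtrl, 15 and 12 in shEZH2, 17 and 18 in shE2F1, 16 in shSUZ12, 18 in DMSO and 16 in GSK126. The second shEZH2 library was lowest, as it was over all genes (62.0% against 64.0% to 66.7% in the other libraries). The share of the 55 stayed between 21.8% and 32.7% in every library, below the range of all genes.

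**Figure D1:**
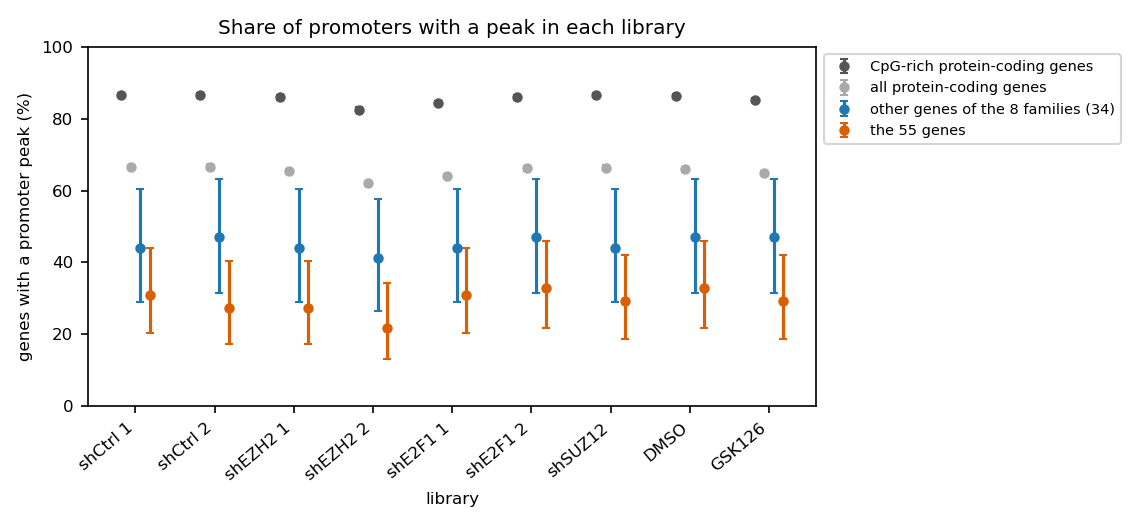
Share of genes with a promoter peak (y axis, percent) in each of the 9 libraries (x axis), for the 55 genes, 34 other genes of the same families, all 20033 protein-coding genes and the 12976 with a CpG-rich TSS. Dots are shares and bars 95% Wilson intervals; the 55 genes lie between 21.8% and 32.7% and all genes between 62.0% and 66.7%.

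The share was also low among CpG-rich promoters. A TSS was called CpG-rich when the 500 bp on either side held at least 50% GC and an observed/expected CpG ratio of at least 0.6, and 45 of the 55 genes met this. Of these 45, 9 (20.0%, 10.9 to 33.8) had a peak in all 9 libraries, against 81.0% of 12976 CpG-rich genes. In the step of the ratio from 0.6 to 0.8 the shares were 25.0% of 24 genes and 77.7% of all genes, and from 0.8 to 1.0 they were 16.7% of 18 genes and 83.5%. From 0.4 to 0.6 they were 42.9% of 7 genes (DLX3, LHX9 and NKX2-1 among them with a peak throughout) and 43.4%. The 32 closed promoters had a median ratio of 0.77 and the 12 open ones of 0.71, while over all genes closed promoters had 0.30 and open ones 0.79.

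**Figure D2:**
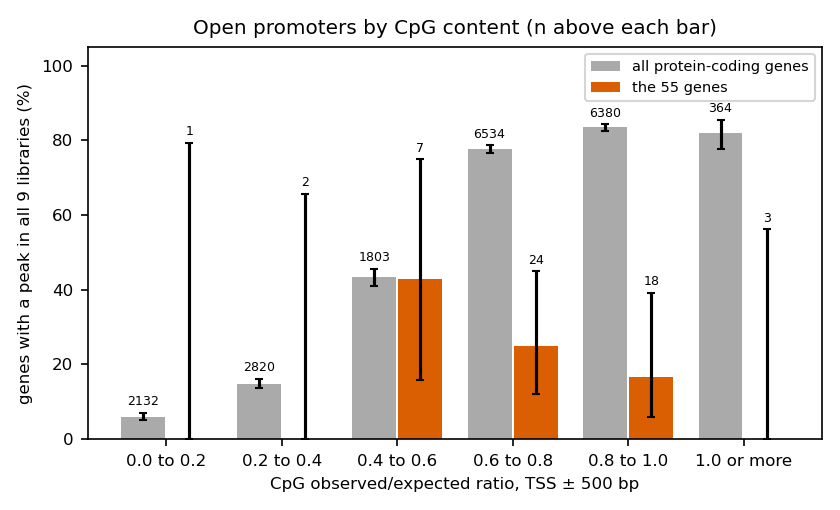
Share of genes with a promoter peak in all 9 libraries (y axis, percent) by the observed/expected CpG ratio around the TSS (x axis), for the 55 genes and all protein-coding genes. Bars are shares, lines 95% Wilson intervals and the numbers above them the genes in each step; between 0.6 and 1.0 the 55 genes reach 25.0% and 16.7% where all genes reach 77.7% and 83.5%.

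The families differed in count, though each is small. Of the PAX genes, which pattern the vertebral column, eye, kidney, thyroid and B cells, 1 of 9 was open throughout (PAX9) and the other 8 had no peak. Among SOX genes 2 of 9 were open (SOX9 and SOX21) and 5 of 9 closed, among LHX genes 3 of 8 (LHX4, LHX6 and LHX9) were open and 4 of 8 closed, and among DLX genes 2 of 6 (DLX3 and DLX4) and 3 of 6. SIX2 was open and SIX6 closed, IRX3 was the open IRX gene, and NKX2-1 and NKX6-1 were the open NKX genes. None of the 8 TBX genes, which specify limb, heart and pharyngeal fields, had a promoter peak in more than 2 libraries. The 32 genes with no promoter peak were PAX1 to PAX8, SOX1, SOX8, SOX10, SOX14, SOX17, LHX2, LHX3, LHX5, LHX8, SIX6, DLX1, DLX5, DLX6, IRX4, IRX6, NKX2-2, NKX2-3, NKX6-2, TBX2, TBX3, TBX5, TBX15, TBX18 and TBX20.

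**Figure D3:**
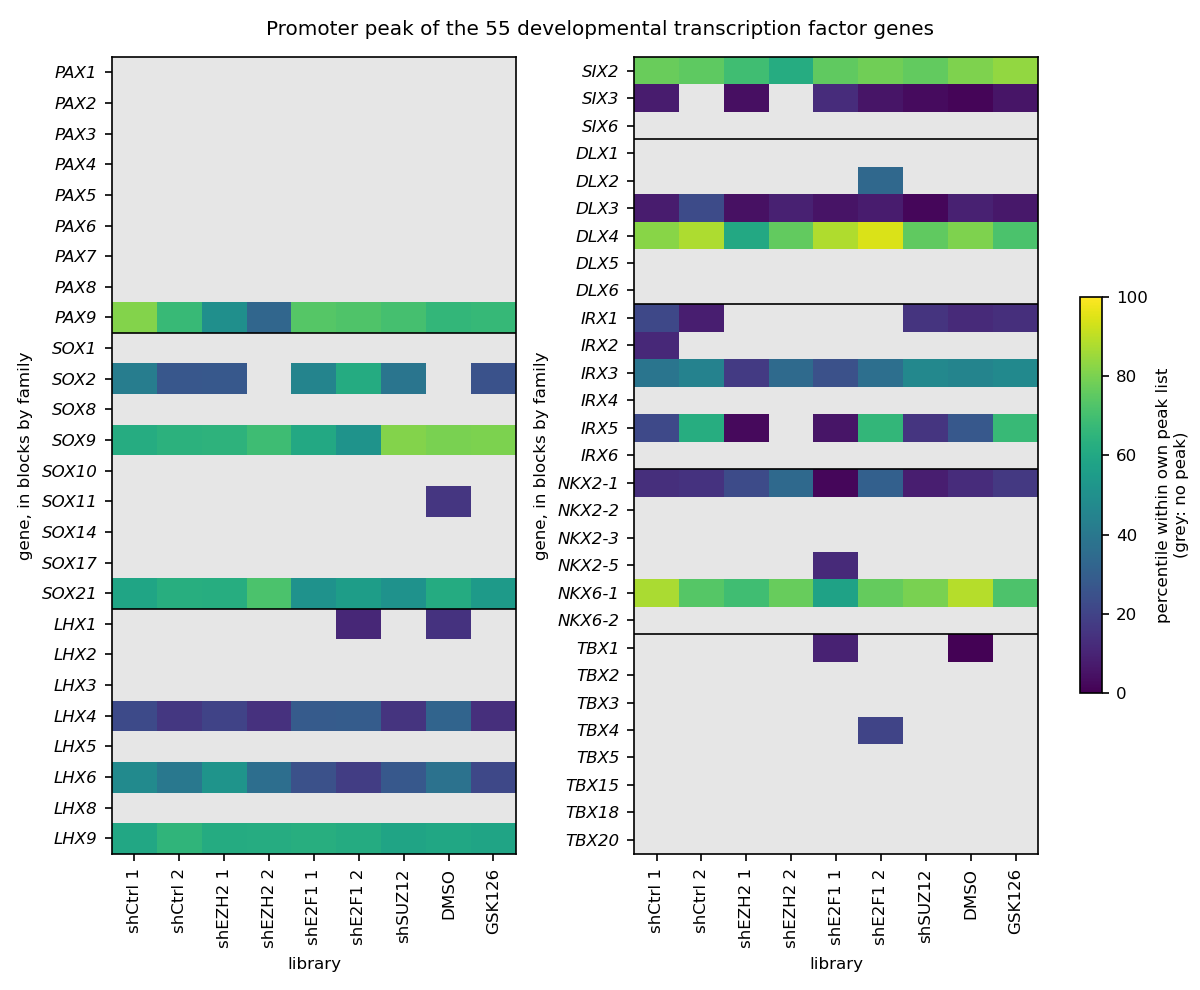
Percentile of the strongest promoter peak within its own list (colour, 0 to 100, grey where there is no peak) for the 55 genes (y axis, in blocks by family) in the 9 libraries (x axis). Coloured bands run across all libraries for 12 genes such as PAX9, SOX9 and SIX2, and 32 genes are grey throughout.

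Several members lie next to each other on a chromosome. Of 13 neighbouring pairs within 1 Mb, NKX2-1 and PAX9 on chromosome 14 (142 kb apart) and DLX4 and DLX3 on chromosome 17 (26.0 kb apart) were open throughout. SIX3 and SIX2 on chromosome 2 (67.8 kb apart) had peaks in 7 and 9 libraries and IRX3 and IRX5 on chromosome 16 in 9 and 8, whereas the third gene of that cluster, IRX6, had none. The IRX4, IRX2 and IRX1 cluster on chromosome 5 held peaks in 0, 1 and 5 libraries. No peak was found at either gene of the pairs TBX5 and TBX3, DLX6 and DLX5, NKX2-2 and PAX1, and LHX5 and TBX5. No test was made on neighbours.

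The median rank of the open members lay below that of all open promoters, although single members ranked high. Peaks were ranked by fold enrichment over local background within their own list, on a percentile scale where 100 is the highest. The 12 genes open throughout had median percentiles of 59.3 and 63.4 in shCtrl, against 77.3 and 79.1 for all 12026 promoters open in all 9 libraries, and lay below that median in each of the other 7 libraries too (49.0 to 60.5 against 73.4 to 82.0).

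DLX4, a homeobox gene of placenta and craniofacial tissue, ranked highest in shCtrl, at percentiles of 82.1 and 87.9. NKX6-1, a factor of pancreatic beta cells and motor neurons, stood at 87.2 and 73.5. SIX2, which maintains nephron progenitors, stood at 77.3 and 75.3, and its summit, 224 to 301 bp upstream of the TSS, held 80 to 218 tags, the highest median of tags (172) among the 55 genes. PAX9, a gene of tooth and thymus development, stood at 81.4 and 67.5, and SOX9, the chondrocyte factor that also marks epithelial progenitors, at 62.1 and 64.1. Each of the 5 had its summit at nearly the same base in every library, within a span of 29 bp (SOX9) to 77 bp (SIX2).

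At the low end were NKX2-1, the lung and thyroid factor, at 13.6 and 14.8, DLX3, a gene of epidermis and tooth, at 7.61 and 23.0, and LHX4, a pituitary gene, at 22.4 and 16.1. IRX3, active in heart and hypothalamus, followed at 38.9 and 44.3 and LHX6, a gene of cortical interneurons, at 47.8 and 39.9. A low percentile was not always a low number of tags. DLX3 held 27 to 66 tags over a local background of 6.58 to 13.2 tags, whereas PAX9 held 21 to 55 over 2.76 to 4.86. Neighbours in this order often overlapped between their 2 shCtrl libraries, as DLX4 and NKX6-1 did.

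LHX9, a gene of gonad and limb, varied least: it stood at 60.0 and 65.4 in shCtrl, 61.5 and 61.9 in shEZH2, 62.6 and 61.5 in shE2F1, 58.3 in shSUZ12, 59.6 in DMSO and 58.3 in GSK126. Its summit lay 1350 to 1362 bp upstream of the TSS, so only the edge of the peak reached the 1 kb window, and with summits required inside the window 11 instead of 12 genes were open throughout. IRX5, expressed in retina and heart, had peaks at 2 sites. Its strongest promoter peak lay 1530, 1548 and 1584 bp upstream in the second shCtrl, second shE2F1 and GSK126 libraries, at percentiles of 62.4, 66.3 and 67.4. In the 5 other libraries with a peak it lay 166 to 229 bp upstream, at 2.40 to 27.7, so its percentiles compare different sites. Followed as a region, the upstream site was called in all 9 libraries, at 42.8 to 70.5, and in those 5 its edge did not reach the window.

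Of the 11 genes open in some libraries, 5 had a peak in a single library, with 12 to 42 tags at the summit. They were SOX11 in DMSO (15.9), NKX2-5, the cardiac factor, in the first shE2F1 library (12.1), IRX2 in the first shCtrl library (11.4), and DLX2 (33.7) and TBX4 (20.5) in the second shE2F1 library, the deepest of the 9. LHX1 had a weak peak in the second shE2F1 library (11.3) and in DMSO (14.7), and TBX1 in the first shE2F1 library (9.50) and in DMSO (0.69). The 2 TBX1 peaks lay at opposite ends of the promoter, 1348 bp downstream and 1274 bp upstream of the TSS. Followed as a region, the downstream TBX1 site was called in 7 libraries, at 3.38 to 15.9. Only in the first shE2F1 library did its edge reach the window. SIX3, a forebrain and eye gene, had peaks at 1.37 to 12.7 in 7 libraries and lacked one in the second shCtrl and second shEZH2 libraries.

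Some promoters without a peak had one at another annotated TSS. With any TSS counted, 14 genes were open in all 9 libraries and 28 in none. PAX8, the thyroid and kidney factor, then had a peak in 9 libraries, at percentiles of 84.7 to 93.3 and thus among the strongest of the 55, and PAX5, the B cell factor, had one in 8 libraries at 3.35 to 36.0. For TBX1 the number was 9 in place of 2 libraries, at 3.38 to 15.9. Which transcript these cells use was not measured.

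No closed promoter of the 55 gained a peak with shEZH2. A gain needed a peak in every knockdown library and in no shCtrl library, and a loss the opposite. Of 38 members with no shCtrl peak, 0 gained a peak with shEZH2, and over all promoters the share gained was 0.236%. Peak calls of 2 libraries against 2 give a two-sided p of 0.333 at the lowest in an exact permutation test, so counts are set beside their background and given no p, and no model was fitted. Leaving out any 1 shCtrl or shEZH2 library kept this count at 0, where 0.495% to 2.3% of all promoters were gained. At such shares 0 of 38 or 40 members lies near the background. Of 15 members with a peak in both shCtrl libraries, 1 lost it, IRX1, against 1.53% of all promoters. Without the second shCtrl library 2 of 17 were lost (3.06% of all promoters), and without the first shEZH2 library, which leaves the shortest list, 3 of 15 were lost (5.51%). With every list cut to its 58626 highest peaks, the length of the shortest, 0 of 13 were lost (0.904%).

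IRX1, a homeobox gene of limb and lung patterning, had a small peak in both shCtrl libraries, at percentiles of 21.8 and 8.40 with 28 and 22 tags, and in DMSO (12.1), GSK126 (13.5) and shSUZ12 (15.1). No peak was called in either shEZH2 or either shE2F1 library. In shCtrl, DMSO and GSK126 the summit lay 94 to 205 bp upstream of the TSS, within the IRX1 stretch printed above, while in shSUZ12 it lay 595 bp downstream, in a region that overlaps coding sequence. The upstream site was therefore called in the 2 shCtrl libraries, DMSO and GSK126 alone. With 22 to 29 tags the site was weak, and in lists of equal length IRX1 no longer counted as open in both shCtrl libraries. A peak just under the calling limit cannot be told apart from a closed site.

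In 12 members every shCtrl and every shEZH2 library had a peak, and among these both shEZH2 percentiles lay above both shCtrl percentiles for 2 and below for 4. The background was 10.6% higher and 29.7% lower over 12234 promoters. PAX9 differed most, at 81.4 and 67.5 in shCtrl and 49.7 and 32.9 in shEZH2 (74.4 ± 9.83 and 41.3 ± 11.8, SD, n = 2, a difference of −33.1 points). The second shEZH2 library was the lowest of all 9 for PAX9, with 21 tags. For PAX9 shE2F1 (73.8 and 72.4) and shSUZ12 (70.5) stayed within the shCtrl range, and DMSO (66.3) and GSK126 (66.8) lay just below it.

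DLX4 stood at 60.4 and 75.9 in shEZH2 against 82.1 and 87.9 in shCtrl, a difference of −16.8 points. IRX3 stood at 17.0 and 34.5 against 38.9 and 44.3, a difference of −15.9. For SIX2 the values were 69.4 and 61.8 against 77.3 and 75.3, a difference of −10.7. For all 3 the mean difference exceeded the gap between the shCtrl libraries, although for IRX3 the nearest values were 34.5 and 38.9. The gap between the shEZH2 libraries was wider for all 3. It exceeded the mean difference for IRX3 and came close to it for DLX4. In lists of equal length IRX3 differed by only −0.33.

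NKX2-1 stood higher in shEZH2, at 22.9 and 34.3 against 13.6 and 14.8 in shCtrl (+14.4 points), although its tags at the summit were 41 and 36 against 42 and 44. The NKX2-1 region also reaches the 1 kb window around the TSS of SFTA3, another protein-coding gene. SOX9 stood at 64.6 and 68.8 against 62.1 and 64.1 (+3.60), which is 95 and 74 tags against 106 and 146. On the percentile of −log10 p, which weighs tags more, the SOX9 difference was −0.79, and in lists of equal length it was +13.0, with 5 of 12 members and 23.9% of all promoters higher. Over the 12 members the median difference was −4.78 points, against −2.58 over all promoters, with 8 of 12 below 0. Without the second shCtrl library 4 of 12 members lay higher (23.2% of all promoters), and without the second shEZH2 library 7 of 14 lay lower (45.7%).

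Peak width was also compared. The strongest promoter peak was narrower in both shEZH2 libraries for 7 of 12 members (PAX9, SOX9, LHX4, LHX6, DLX4, NKX2-1 and NKX6-1) and wider for 0, against 47.3% and 2.32% of all promoters. The SOX9 peak was 1158 and 1403 bp wide in shCtrl and 393 and 483 bp in shEZH2, where 2 peaks were called in its place. Counted as bases covered within the promoter, the SOX9 values were 1158 and 1403 bp against 1041 and 909 bp. At NKX2-1 the width was 950 and 1106 bp in shCtrl and 421 and 238 bp in shEZH2, and also 248 bp in DMSO. Over the 12 members the median ratio of widths was 0.89, and over all promoters it was 0.87. Without the first shCtrl library 3 of 12 members were wider (6.71% of all promoters), and without the second shEZH2 library 3 of 14 were (18.4%).

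The shE2F1 libraries were compared with the same shCtrl libraries as shEZH2, so the comparisons are not independent. Of 38 members 0 gained a peak (0.613% of all promoters), and of 15 members 1 lost it (0.906%), IRX1 as above. Without the first shCtrl library 1 of 40 was gained (SIX3, background 1.24%), without the first shE2F1 library 3 of 38 (DLX2, LHX1 and TBX4, background 2.83%) and without the second 2 of 38 (NKX2-5 and TBX1, background 1.59%). Followed as a region, that TBX1 site was also called in the second shCtrl library (4.49), beyond the window. Without the second shCtrl library 2 of 17 were lost (2.29%), and in lists of equal length 0 of 13 (1.01%). Among the 14 members with a peak in all 4 libraries, 3 lay higher and 5 lower in both shE2F1 libraries, against 19.2% and 17% of 12516 promoters. In lists of equal length 2 of 10 lay lower (15.4%).

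LHX6 differed most with shE2F1, at 24.9 and 18.1 against 47.8 and 39.9 in shCtrl (21.5 ± 4.83 and 43.8 ± 5.54, SD, n = 2, −22.3 points). The summit held 19 and 25 tags against 33 and 35. It lay 144 and 238 bp upstream of the TSS in shCtrl and 152 bp upstream in the first shE2F1 library, but 309 bp downstream in the second. SOX2, the pluripotency and neural progenitor factor, stood higher at 45.1 and 61.4 against 42.5 and 27.0 (+18.5 points), with 17 and 28 tags against 21 and 18. Its lower shE2F1 value exceeded the higher shCtrl value by less than the gap between the shCtrl libraries.

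IRX3 stood at 24.7 and 36.7 with shE2F1 (−10.9 points from shCtrl), SOX21, a neural gene, at 50.9 and 55.8 against 58.6 and 62.7 (−7.31), and DLX3 at 5.25 and 7.51 against 7.61 and 23.0 (−8.92). The DLX3 difference was −1.23 without the second shCtrl library. LHX4 stood at 28.5 and 28.9 against 22.4 and 16.1 (+9.48). DLX4 stood at 88.2 and 94.3 against 82.1 and 87.9 (+6.25), its highest values in any library, with 66 and 118 tags against 103 and 127. SOX9 stood at 60.3 and 51.4 (−7.24), with 63 and 80 tags. The median over the 14 members was −3.83 against −0.07 over all promoters.

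**Figure D4:**
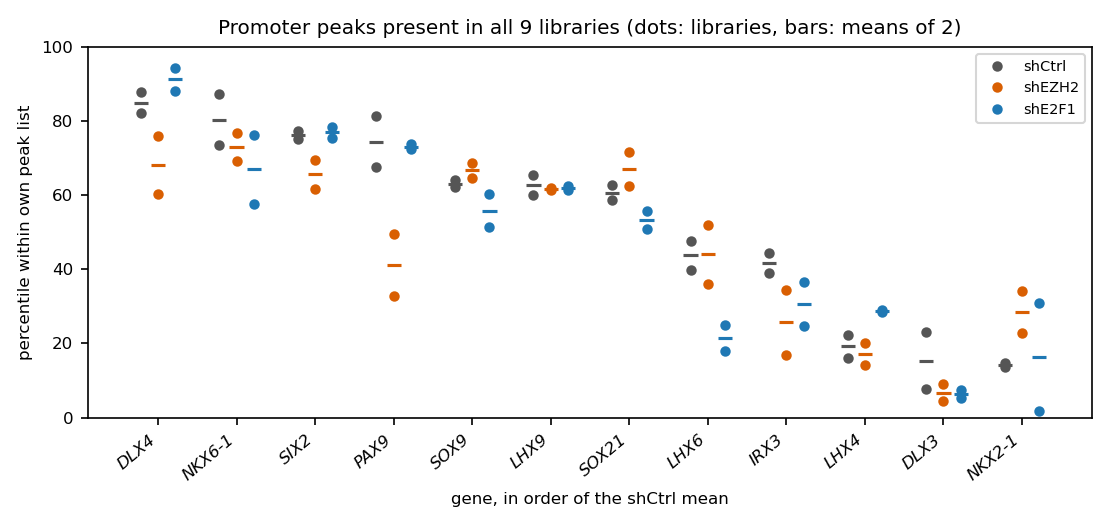
Percentile of the promoter peak within its own list (y axis) for the 12 genes open in all 9 libraries (x axis, ordered by the shCtrl mean), in shCtrl, shEZH2 and shE2F1. Dots are the 2 libraries of a group and short bars their mean; PAX9, DLX4, IRX3 and SIX2 lie lower in shEZH2, LHX6 lies lower in shE2F1, and LHX9 stays near 62.

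Without the first shCtrl library 5 of 14 members were higher with shE2F1 (29.6% of all promoters), and without the first shE2F1 library 6 of 14 were (43.8%). Without the second shE2F1 library 8 of 14 were lower (44.9%). With shE2F1 6 of 14 members were narrower (SOX9, LHX4, LHX6, DLX4, NKX2-1 and NKX6-1) and 0 wider, against 37.3% and 4.25% of all promoters, with a median ratio of 0.81 against 0.91. The strongest SOX9 peak was 314 and 362 bp wide, where 2 peaks were called that together covered 569 and 1102 bp of the promoter. Without the second shCtrl library 10 of 15 were narrower (51.1% of all promoters), and without the second shE2F1 library 10 of 14 were (72.7%). Without the first shCtrl or the first shE2F1 library 3 of 14 were wider (10.9% and 23.7%).

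Among the other genes of the 8 families the counts were as follows. With shEZH2 0 of 18 gained a promoter peak (0.236% of all promoters) and 1 of 15 lost it (1.53%), and 1 of 13 ranked higher (10.6%) and 3 of 13 lower (29.7%). With shE2F1 0 of 18 gained (0.613%) and 0 of 15 lost a peak (0.906%), and 2 of 14 ranked higher (19.2%) and 3 of 14 lower (17%).

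In the single shSUZ12 library no closed promoter of the 55 had a peak. Of 38 members 0 gained a peak (2.71% of all promoters) and of 15 members 0 lost it (1.17%), though the IRX1 peak lay elsewhere. With 1 library there is no replicate. Its percentile lay above both shCtrl values for 2 of 15 members and below both for 8, whereas over all promoters 52.6% lay above and 19.2% below. The members above were SOX9, at 81.3 against 62.1 and 64.1, and IRX3, at 46.7 against 38.9 and 44.3. Those below were SOX21, LHX4, LHX6, LHX9, DLX3, DLX4, IRX5 and NKX2-1. LHX6 stood at 27.7 against 47.8 and 39.9, DLX4 at 75.4 against 82.1 and 87.9, and DLX3 at 1.89 against 7.61 and 23.0. The median difference was −4.15 points for the members and 2.73 for all promoters. SOX9 was as high in DMSO (79.8) and GSK126 (80.2) as in shSUZ12, so the shCtrl, shEZH2 and shE2F1 libraries were the lower ones.

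For the EZH2 inhibitor there was 1 GSK126 library, set against 1 DMSO library. Of 37 members with no DMSO peak 1 gained a peak (2.5% of all promoters), SOX2, at a percentile of 25.4 with 15 tags. SOX2 was also called in shCtrl 1 and 2, and only the DMSO and second shEZH2 libraries of the 9 lacked one. Of 18 members 3 lost a peak (2.86% of all promoters): SOX11, a neural gene, LHX1, a kidney and head organizer gene, and TBX1, the pharyngeal arch gene. Their DMSO peaks held 12, 17 and 26 tags, and none of the 3 genes had a promoter peak in shCtrl. The TBX1 peak in DMSO covered 39 bp of the window. The TBX1 site downstream of the TSS, beyond the window here, was called in both DMSO (7.01) and GSK126 (13.2). Against both shCtrl libraries in place of DMSO, 0 were gained and 0 lost.

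A difference of at least 10 percentile points was counted as a shift, which is less than the gap between the shCtrl libraries at PAX9, SOX2, NKX6-1, DLX3, IRX1 and IRX5. Of 15 members 1 was higher with GSK126 (6.87% of all promoters) and 3 were lower (15.4%). The higher one was IRX5, at 67.4 against 27.7, but these are different sites. Site by site IRX5 was not higher with GSK126: the upstream region stood at 67.4 against 67.5 in DMSO and the one at the TSS at 14.9 against 27.7. The lower ones were LHX4 (13.5 against 32.3), LHX6 (21.6 against 37.7) and NKX6-1 (72.1 against 89.0). PAX9 (66.8 against 66.3), SOX9 (80.2 against 79.8) and SIX2 (83.6 against 80.5) differed less. Whether PAX9 differed between shEZH2 and the inhibitor was not tested.

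Beyond the promoters, peaks within 20 kb of the 55 TSSs were merged over the 9 libraries into 154 regions. Of these 30 lay at the TSS of a member, 4 at the TSS of another gene and 120 over 1 kb from any canonical TSS. Among the 120 distal regions, 93 were intergenic, 17 intronic, 8 overlapped coding exons and 2 noncoding exons. In all 9 libraries 27 of the 120 (22.5%) had a peak, against 28.4% of 103892 distal regions genome-wide, and 39 (32.5%) were found in 1 library only, against 26.6%. The number of these 154 regions with a peak was 89 and 101 in shCtrl, 89 and 53 in shEZH2, 76 and 100 in shE2F1, 84 in shSUZ12, 90 in DMSO and 73 in GSK126.

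Members with no promoter peak had regions nearby in shares close to the background. Of the 32, 24 (75%) had a region within 20 kb, against 66.8% of all 5830 genes with no promoter peak, and 12 (37.5%, against 32.9%) had a distal region open in all 9 libraries: PAX2, PAX7, PAX8, SOX8, SOX10, LHX3, LHX5, DLX1, DLX5, NKX2-3, TBX2 and TBX15. Their ranks ranged widely, and those given here were named after their values were seen. The region 4.96 kb upstream of PAX8 stood at 87.3 to 94.8, the one 2.95 kb upstream of DLX5, a jaw and limb gene, at 28.1 to 79.7, and the one 13.4 kb upstream of TBX15 at 49.4 to 72.0. SOX10, the neural crest and melanocyte factor, had one 14.8 kb upstream at 55.8 to 75.6. The regions of TBX2 ranked lower, at 22.2 to 37.8 and 15.6 to 51.1, and one 2.16 kb upstream of LHX5 stood at 13.4 to 59.9. SIX3 had 4 distal regions in all 9 libraries, the strongest 17.4 kb downstream at 58.1 to 74.1, beside its weak promoter peak. No region at all lay within 20 kb of SOX1, LHX8, SIX6, DLX6, IRX6, TBX3, TBX5 and TBX20, which is 14.5% of the 55 genes against 9.66% of all genes. All 8 are among the 32 with no promoter peak, where the share was 25% against 33.2% of all such genes. Which gene a distal region acts on was not measured.

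**Figure D5:**
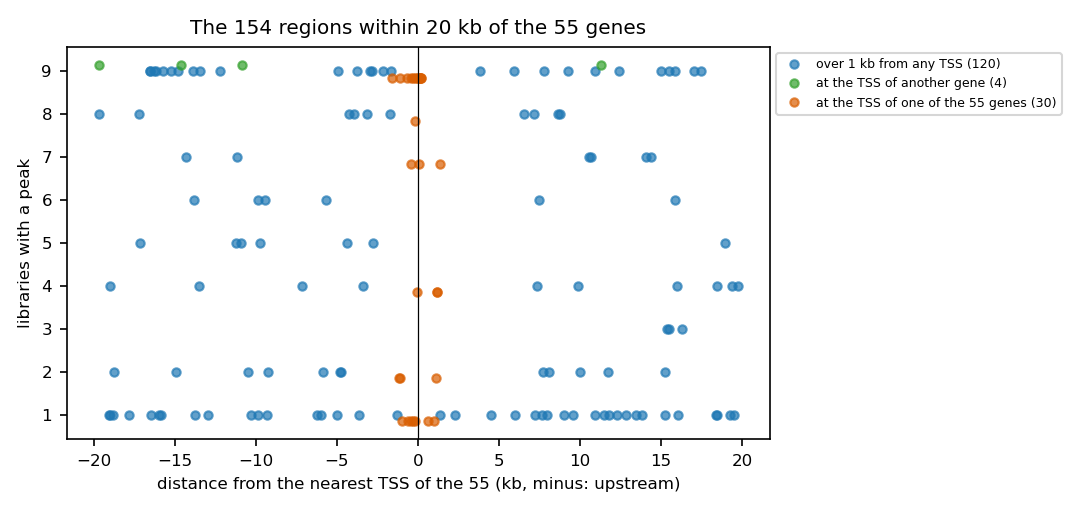
The 154 regions within 20 kb of the 55 genes by distance of the midpoint from the nearest of these TSSs (x axis, kb, minus for upstream) and number of libraries with a peak (y axis, 1 to 9; colours are offset slightly). Colours mark 30 regions at a TSS of the 55 genes, 4 at other TSSs and 120 distal ones, which lie along the whole 40 kb and are found most often in 1 library or in all 9.

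With shEZH2, 0 of 120 regions near the members were gained and 8 were lost, against 0.889% and 7.2% of all regions. The 3 lost regions with the highest −log10 q (lower of the shCtrl libraries) lay 9.37 kb upstream of TBX1 (10.6), 9.98 kb downstream of the LHX5 TSS (10.3) and 17.1 kb upstream of PAX4, a beta cell gene (8.77). All 3 were intergenic. The TBX1 region stood at percentiles of 25.9 and 15.9 in shCtrl and also had a peak in both shE2F1 libraries, DMSO and shSUZ12, but not in GSK126. The PAX4 region stood at 39.9 and 49.9 in shCtrl and was present in the second shE2F1, DMSO and shSUZ12 libraries. The other lost regions lay near NKX2-3, IRX1, SIX2, PAX3 and TBX4. Without the first shCtrl library 1 of 116 was gained and 23 lost (1.88% and 19% of all regions), and without the second 2 of 108 and 16 (2.33% and 16.7%). Without the first shEZH2 library 2 of 117 were gained and 31 lost (2.79% and 17.2%), and without the second 5 of 118 were gained (6.97%). In lists of equal length 2 of 85 were gained and 1 was lost (2.68% and 3.88%).

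With shE2F1, 3 of 141 regions near the members were gained and 7 lost, against 2.86% and 3.81% of all regions. The gained ones lay 9.29 kb upstream of SOX17, an endoderm factor, at percentiles of 96.9 and 56.7, 15.4 kb downstream of the TBX4 TSS overlapping a coding exon of TBX4 (36.8 and 29.4), and 14.9 kb upstream of LHX2, an eye and forebrain gene (11.0 and 7.55). By its percentile in the first shE2F1 library the SOX17 region ranked highest among the changed regions of all comparisons. By the lower −log10 q (13.1) it ranked first among regions changed with shEZH2 or shE2F1, but not among those with shSUZ12 and GSK126 included. The SOX17 promoter had no peak in any library. The TBX4 region also had a peak in GSK126 (16.7). Lost regions with the highest −log10 q were that of LHX5 (38.4 and 22.2 in shCtrl), one 8.10 kb downstream of the TSS of NKX2-3, a spleen and gut gene (41.6 and 29.5), and the IRX1 promoter. The LHX5 and NKX2-3 regions had a peak in the 2 shCtrl libraries and in none of the other 7, while a second region near the first of these, 9.26 kb downstream of the LHX5 TSS, had a peak in all 9. Without the first shCtrl library 5 of 136 were gained and 23 lost (4.66% and 11.8% of all regions), and without the second 5 of 127 and 13 (5.47% and 10.5%). Without the first shE2F1 library 20 of 134 were gained and 11 lost (13.1% and 5.33%), and without the second 10 of 125 and 18 (6.84% and 12.9%). In lists of equal length 0 of 83 were lost (3.74%).

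Sequence at the summits of changed regions is shown for the NKX2-3 and PAX4 regions, which were lost, and the TBX4 region, which was gained, in GRCh38 on the plus strand, as the summit of the stronger library with 50 bases on either side. Capitals mark the AP-1 motif TGANTCA or the E2F motif, taken as TTTGGCGC or TTTCCCGC, on either strand.
NKX2-3 lost with shEZH2 and shE2F1 (chr10:99541025-99541125): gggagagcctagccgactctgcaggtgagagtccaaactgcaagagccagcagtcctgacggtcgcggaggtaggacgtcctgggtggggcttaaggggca
PAX4 lost with shEZH2 (chr7:127635147-127635247): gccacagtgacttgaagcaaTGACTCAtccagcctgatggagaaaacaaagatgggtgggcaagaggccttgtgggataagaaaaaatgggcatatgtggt
TBX4 gained with shE2F1 (chr17:61467682-61467782): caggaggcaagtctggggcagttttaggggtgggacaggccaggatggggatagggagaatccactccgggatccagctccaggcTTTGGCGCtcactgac

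The PAX4 run holds 1 AP-1 match, the TBX4 run 1 E2F match and the NKX2-3 run neither. The same window at the gained LHX2 region and at the lost IRX1 and TBX1 regions, not printed, holds neither motif. Within 100 bp of the strongest summit, AP-1 matches were found in 27 of 120 distal regions near the members (22.5%, 15.9 to 30.8) and in 34.8% of all distal regions. An E2F match was found in 3 of 120 (2.5%, 0.85 to 7.09), near PAX9, SOX2 and TBX4, and in 0.386% of all distal regions. A match of letters is a description and not evidence of binding, and 3 regions are few.

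Changes near the members in the unreplicated libraries were more numerous, as they were genome-wide. With shSUZ12 11 of 124 regions were gained and 12 lost, against 6.84% and 8.55%. The LHX5, NKX2-3, IRX1 and SIX2 regions lost with the other knockdowns were also without a peak in shSUZ12, against the same shCtrl libraries. With GSK126 13 of 106 regions were gained (12.3%, background 9.16%) and 29 were lost (27.4%, background 17.6%), and the GSK126 library held fewer peaks than DMSO (68756 against 74657). By −log10 q the strongest gained region lay 9.74 kb upstream of TBX2 and the strongest lost regions 18.4 kb downstream of the NKX2-3 TSS and in a coding exon of IRX3. The TBX2 region was also called in shCtrl 1 and 2, and the NKX2-3 region was found in DMSO alone.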

How the data were processed

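ATAC-seq was measured in 9 MDA-MB-231 libraries, grouped by the deposited labels. The authors aligned the reads with Bowtie2 to GRCh38 (hg38), per the labels, and deposited 1 peak list per library, with replicates not pooled. The peak caller is not given in the sources used here. The deposited lists hold a fold enrichment, which is the ratio of the summit to its local background, and the −log10 of p and q for each peak. The authors did not normalize these values between libraries, so peaks were ranked within their own list. The labels do not say that the 2 libraries of a group came from separate cultures, so differences between them may be technical.

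TSSs were those of the Ensembl canonical transcripts of protein-coding genes in GENCODE v44. Peak coordinates fitted within the chromosomes of GRCh38. A promoter was the TSS ± 1 kb, the strongest of several peaks was used, and regions were peaks of the libraries compared merged at 1 bp. Fold enrichment and −log10 p together give whole tags at the summit for 100% of the peaks checked in every library. Higher or lower means that every knockdown library lies on one side of every shCtrl library.

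Genes were named by a rule: gained or lost promoters, the 8 largest differences for each knockdown among values that do not overlap, the 5 highest and lowest in shCtrl, and for regions the top 3 by −log10 q in each direction. The members, lists and rule were chosen with earlier results of these data known. Libraries of equal replicate number were not paired: across promoters, replicate 1 minus replicate 2 in shCtrl correlated with the same in shEZH2 at r = 0.052 and in shE2F1 at r = 0.0576. The counting steps were tested on simulated data. Python 3.11.15 was used with numpy 2.4.6, pandas 2.3.3, scipy 1.17.1, pysam 0.24.0 and matplotlib 3.10.9. Reads per region and the other data types of the study were not used here.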

Additional observations from a re-analysis of the deposited data

Results flagged for a closer look

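The promoter peaks of SOX9 and DLX4 lay on opposite sides of shCtrl in the 2 knockdowns, in every library and against the same shCtrl libraries, by percentile of fold enrichment. For SOX9 the mean percentile was 3.60 points above shCtrl with shEZH2 and −7.24 points from shCtrl with shE2F1. The SOX9 difference with shEZH2 was −0.79 by the percentile of −log10 p, and its summit held fewer tags in both knockdowns (95 and 74 with shEZH2, 63 and 80 with shE2F1) than in shCtrl (106 and 146). For DLX4 the difference was −16.8 points with shEZH2 and +6.25 points with shE2F1. Its lower shE2F1 percentile, 88.2, stood just above the higher shCtrl percentile, 87.9. The DLX4 fold enrichment was 10.6 and 13.3 with shE2F1 against 11.1 and 13.1 in shCtrl, and its summit held 66 and 118 tags against 103 and 127. The difference between the knockdowns was not tested.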

How the results depend on the processing

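The number of promoters open throughout stayed within 9 to 14 of 55, and the number with no peak within 28 to 37, under every alternative tried. Over all protein-coding genes the shares were 57.4% to 65.4% and 23.6% to 33.1%. On the percentile of −log10 p, 1 of 12 members was higher with shEZH2 (4.15% of all promoters), and the SOX9 difference changed sign to −0.79. With shCtrl in place of DMSO, 0 of 38 members gained and 0 of 15 lost a promoter peak with GSK126, and 2 were higher. No share over all promoters is set beside these counts, so they describe the members alone. With every list cut to its 58626 highest peaks, 0 of 13 members lost a promoter peak with either knockdown. Over all promoters 0.904% lost it with shEZH2 and 1.01% with shE2F1. In these lists 5 of 12 members were higher with shEZH2 (23.9%) and 2 of 10 lower with shE2F1 (15.4%). Of the regions, 2 were gained and 1 lost with shEZH2 and 0 lost with shE2F1, with shares over all regions as given above. Within 10 kb 1 region was gained with shE2F1. Within 50 kb 1 region was gained and 17 lost with shEZH2, and 5 were gained with shE2F1. The shares over all regions do not depend on this distance and were 0.889%, 7.2% and 2.86%.

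Leaving out 1 library at a time gave, for shEZH2, 1 to 3 promoter peaks lost, against 2.06% to 5.51% of all promoters. Peaks were wider for 0 to 3 members, against 5.49% to 18.4%. Percentiles were higher for 2 to 4 and lower for 6 to 7 of 12 members, or 14 without the second shEZH2 library. Over all promoters 17.99% to 26.5% were higher and 41.99% to 53.8% lower. Of the regions, 1 to 5 were gained and 9 to 31 lost. For shE2F1 0 to 3 promoter peaks were gained and 1 to 2 lost, against 1.24% to 2.83% and 1.31% to 3.46%. Percentiles were higher for 3 to 6 and lower for 5 to 8 of 14 members, or 15 without the second shCtrl library. Over all promoters 29.6% to 43.8% were higher and 27.3% to 44.9% lower. Peaks were wider for 0 to 3 members and narrower for 7 to 10, against 8.96% to 23.7% and 44.1% to 72.7%. Of the regions, 5 to 20 were gained and 11 to 23 lost. With a replicate block, each knockdown library is compared with the shCtrl library of the same number. Then 3 of 12 members were higher and 6 lower with shEZH2, against 16.1% and 39.9% of all promoters. With shE2F1 3 of 14 were higher and 5 lower, against 27.6% and 25.7%. The shallowest list, the second shEZH2 library, had 12 of the 55 promoter peaks and the deepest, the second shE2F1 library, 18. The first shE2F1 library (background of 1.5 tags) had 17 and the second shCtrl library (2.08 tags) 15. Whether the number depends on depth was not tested.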
